A study of Homo sapiens with 7 samples.

Results

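The cyclin E, cyclin A and CDK2 genes were examined for binding of Rb, the retinoblastoma tumour suppressor, in ZR-75-1 cells, an oestrogen receptor-positive cell line established from breast cancer. The 6 genes were chosen by name, with earlier results of these data known. They were CCNE1, CCNE2, CCNA1, CCNA2, CDK2 and CDC25A, out of 19970 protein-coding genes on chromosomes 1 to 22 and X. For each gene, peaks were taken that overlapped the promoter, defined as 2000 bp upstream to 500 bp downstream of any annotated transcription start site (TSS), or the gene itself. Rb occupancy was measured by CUT&RUN, in which an antibody guides a nuclease that cuts out the DNA beside the bound protein for sequencing. Parental cells received DMSO or 500 nM palbociclib, a CDK4/6 inhibitor, for 4 days, with 2 libraries each, which the study describes as individual biological replicates of an experiment done once. RB1 KO cells, in which the gene for Rb was disrupted, received the same treatments with 1 library each, and 1 IgG2a library of parental cells with palbociclib gave the background of a non-targeting antibody. The study's methods describe RB1 KO lines as grown from single sorted cells, so the difference between parental and RB1 KO cells cannot be told apart from a difference between clones. The peak lists hold no RNA or protein level, and they cannot check the loss of the RB1 gene itself.

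Cyclin E and cyclin A are the regulatory subunits of CDK2, the kinase that drives cells from G1 into S phase and through DNA replication. CDC25A is the phosphatase that removes inhibitory phosphates from CDK2. In the textbook circuit, CDK4/6 starts the phosphorylation of Rb, E2F transcription factors are released, and E2F raises cyclin E, whose complex with CDK2 phosphorylates Rb further. CCNE1, CCNE2, CCNA2 and CDC25A are standard examples of E2F targets, whereas CCNA1 encodes a cyclin A known mainly from the male germ line.

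The promoter sequences are shown first because the palbociclib Rb peaks of CCNE1, CCNA2 and CDC25A overlapped them, with CCNA1 beside them as the promoter without an Rb peak. They are the RefSeq windows of GRCh38.p14 from 250 bp before to 50 bp after the TSS, base 251, written 5′ to 3′ on the strand of each gene. Windows were obtained for 4 of the 6 genes, and all 4 windows were identical to the genome sequence at the same coordinates. CCNE2 was left out before the matching, and CDK2 was not matched. Neither gene had a motif search, at the promoter or at the summits. Capitals mark 6-base cores of the E2F site on either strand, that is the last 6 letters of TTTCCCGC, TTTGGCGC, TTTCGCGC or TTTGCCGC. The windows lie on chromosome 19, 29811741 to 29812040, plus strand (CCNE1), on chromosome 4, 121823834 to 121824133, minus strand (CCNA2), on chromosome 3, 48188368 to 48188667, minus strand (CDC25A), and on chromosome 13, 36431705 to 36432004, plus strand (CCNA1).
CCNE1: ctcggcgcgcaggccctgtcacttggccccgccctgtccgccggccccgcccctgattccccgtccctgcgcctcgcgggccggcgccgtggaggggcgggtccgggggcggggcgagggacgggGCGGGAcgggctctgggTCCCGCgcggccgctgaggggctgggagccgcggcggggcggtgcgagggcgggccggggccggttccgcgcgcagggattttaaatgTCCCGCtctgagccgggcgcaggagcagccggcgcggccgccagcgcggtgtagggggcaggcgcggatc
CCNA2: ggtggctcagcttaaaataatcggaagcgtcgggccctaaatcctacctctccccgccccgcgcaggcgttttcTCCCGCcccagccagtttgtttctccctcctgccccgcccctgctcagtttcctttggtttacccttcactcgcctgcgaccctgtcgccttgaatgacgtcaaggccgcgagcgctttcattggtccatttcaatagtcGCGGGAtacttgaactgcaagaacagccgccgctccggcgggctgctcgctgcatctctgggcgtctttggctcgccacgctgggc
CDC25A: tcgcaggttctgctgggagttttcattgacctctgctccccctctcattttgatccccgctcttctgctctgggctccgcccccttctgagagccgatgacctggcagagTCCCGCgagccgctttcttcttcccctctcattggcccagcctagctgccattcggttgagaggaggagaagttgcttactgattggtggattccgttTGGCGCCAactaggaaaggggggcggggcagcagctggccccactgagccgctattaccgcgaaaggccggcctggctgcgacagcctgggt
CCNA1: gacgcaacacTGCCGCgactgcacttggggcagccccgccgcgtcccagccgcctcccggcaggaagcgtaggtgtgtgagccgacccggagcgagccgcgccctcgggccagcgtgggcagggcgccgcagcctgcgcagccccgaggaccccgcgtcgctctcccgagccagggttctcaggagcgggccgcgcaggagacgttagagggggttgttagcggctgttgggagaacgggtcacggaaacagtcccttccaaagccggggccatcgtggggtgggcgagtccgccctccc

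A full E2F site of 8 bases was present only in the CDC25A window among these 4. It read TTTGGCGC, began 44 bp upstream of the TSS, and 4.50% of 15316 protein-coding promoter windows held such a site. Cores were common, occurring in 60.0% of all windows, so their presence says little about a single gene. CCNE1 held 3 cores, starting at −125, −108 and −20 bp. CCNA2 held 2, at −176 and −36 bp, and CCNA1 held 1, at −240 bp. Positions in the CCNA1 window count from the RefSeq start and not from the canonical GENCODE start used for its peak below, which lies farther downstream. CDC25A held 3, of which the pair at −42 and −40 bp lie on opposite strands and overlap each other and the full site.

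The other motifs separated the promoters further. GC boxes (GGGCGG on either strand), which bind Sp1-type factors, numbered 7 in CCNE1, 3 in CCNA2, 2 in CDC25A and 1 in CCNA1, and 59.2% of all windows held at least 1. CCAAT boxes (CCAAT on either strand), the sites of NF-Y, numbered 2 in CDC25A and 1 in CCNA2, and were found in neither CCNE1 nor CCNA1. Of all windows 36.6% held one. The cell cycle homology region (CHR), a site of the DREAM and MuvB complexes, was in none of the 4 windows as TTTGAA, a sequence held by 12.1% of all windows. Its variant CTTGAA, added after the sequences had been seen, occurred at −87 and −28 bp in CCNA2 and in 9.17% of all windows. The CCNE1 window was 81.0% G and C, with a CpG ratio (observed over expected) of 0.973, compared with a median of 63.0% and 0.768 over all windows. The CDC25A window had 61.0% and a CpG ratio of 0.574, below that median.

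More of the 6 promoters had a called Rb peak with palbociclib than with DMSO. In parental cells with DMSO, 2 of 6 had a peak in replicate 1 (CCNE2 and CDC25A) and 3 of 6 in replicate 2 (CCNE1 as well). With palbociclib, 5 of 6 had a peak in each replicate, and CCNA1 was the exception. The means were 2.5 ± 0.707 (SD, n = 2) with DMSO and 5.00 ± 0 (SD, n = 2) with palbociclib, and the groups did not overlap. The exact permutation test, two-sided, gave p = 0.333, which is the smallest value that 2 libraries against 2 allow. Over all protein-coding genes, 5.22% and 4.28% had a promoter peak with DMSO and 39.6% and 39.0% with palbociclib, so the higher count at these genes stood beside a higher count across the genome. With the parental lists held to an equal length of 816 peaks, the means were 2.00 with DMSO and 2.5 with palbociclib, the groups overlapped, and the difference was 0.5 in place of 2.5 (exact permutation test, p = 1.00). CCNA2 and CDK2 were then called in no list, and CDC25A was called in replicate 2 only under each treatment.

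The 6 genes fell into 4 patterns. CCNE2 and CDC25A had a peak in all 4 parental lists, a pattern shared by 2.90% of protein-coding genes. CCNE1 had a peak in both palbociclib lists and 1 DMSO list, as did 3.66%. CCNA2 and CDK2 had a peak in both palbociclib lists and no DMSO list, as did 28.4%. CCNA1 had no Rb peak in any parental list. In all, 5 of 6 were called in both palbociclib lists, against 34.9% of protein-coding genes.

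None of the 6 promoters had a peak in either RB1 KO list, where 0.00501% of protein-coding genes (1 gene) were called under each treatment. These lists hold 65 and 51 peaks, of which 4 and 5 lie on the chromosomes analysed, compared with 753 to 8314 on those chromosomes in the parental Rb lists. The lists give no read totals, so the depth behind the missing calls is unknown. The IgG2a list had a peak at 1 of the 6, CCNA1, and at 1.95% of all protein-coding genes. With 1 library in each of these groups no test was made. No member had a peak within the gene outside its promoter in any of the 7 lists.

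**Figure D1:**
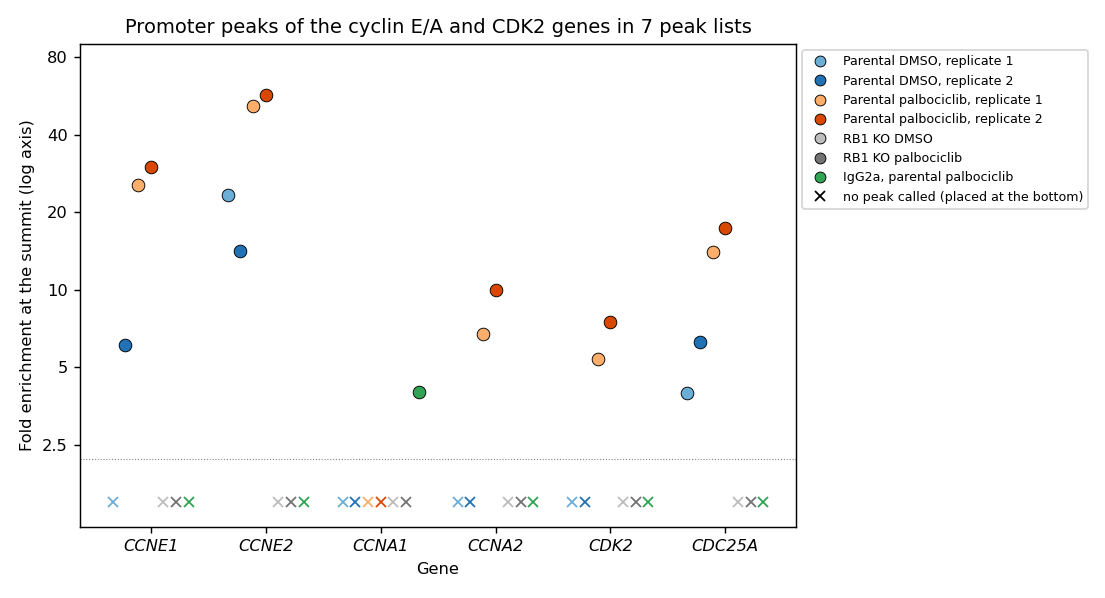
Fold enrichment at the summit of the promoter peak of each gene (log axis) in each of the 7 peak lists, 1 point per library, with a cross at the bottom where no peak was called. For CCNE2 and CDC25A both palbociclib points lie above both DMSO points, and the only point at CCNA1 is from IgG2a, at 4.02.

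CCNE2, which encodes cyclin E2, had the highest Rb peak of the 6 in every parental list. Its gene (ENSG00000175305.18) lies on the minus strand of chromosome 8 (hg38), from 94879770 to 94896678. In CCNE2, fold enrichment, the ratio that the peak caller gives of stacked fragments to the background around the summit, reached 23.3 and 14.1 in DMSO replicates 1 and 2, and 51.8 and 57.0 in the palbociclib replicates. Both palbociclib values exceeded both DMSO values, and the means were 18.7 ± 6.50 and 54.4 ± 3.67 (SD, n = 2 each). The log2 ratio was 1.58 ± 0.37 (SE), 3.0-fold (exact permutation test over libraries, two-sided, p = 0.333, the smallest possible). Among genes with a promoter peak, CCNE2 ranked 2 of 1043 and 23 of 854 with DMSO, and 37 of 7918 and 23 of 7791 with palbociclib.

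The CCNE2 peak was also among the widest in the data. It measured 948 and 797 bp with DMSO and 2529 and 2264 bp with palbociclib, ranks 13, 9, 3 and 5 by width in the respective lists. With palbociclib it ran from 94894393 to 94896921 in replicate 1 and from 94894479 to 94896742 in replicate 2, which covers the canonical TSS and reaches 808 and 722 bp downstream of it. The summits lay at −212 and −196 bp from the canonical TSS with palbociclib and at −323 and −427 bp with DMSO, negative values being upstream. NDUFAF6, a gene for a complex I assembly factor, starts at −332 bp from the CCNE2 TSS on the opposite strand, so the peak covers a divergent promoter and cannot be assigned to a single gene.

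CCNE1, which encodes cyclin E1, was called at 6.09 in DMSO replicate 2, was not called in DMSO replicate 1, and reached 25.4 and 30.0 with palbociclib. The gene (ENSG00000105173.14) lies on the plus strand of chromosome 19 from 29811991 to 29824312. The DMSO peak rested on a summit pileup of 10 fragments (95% Poisson interval 4.80 to 18.4) and the palbociclib peaks on 47 (34.5 to 62.5) and 55 (41.4 to 71.6). These intervals cover counting error only, and duplicate reads had been kept. Pileups as low as 6 fragments were called in both DMSO lists, so the missing call in replicate 1 sets a limit on Rb occupancy there and does not show that it was 0. Width was 225 bp in DMSO replicate 2 and 1073 and 938 bp with palbociclib. The summits lay at −231 bp with DMSO and at −234 and −197 bp with palbociclib, upstream of the annotated TSS. The first GC boxes of the printed window, beside them, start at −222 and −204 bp. Over all protein-coding genes, 67.4% and 68.6% of the palbociclib summit windows, 100 bp to each side, held a GC box. Neither CCNE1 summit window held a full E2F site. They held 4 and 3 E2F cores in palbociclib replicates 1 and 2. Over all protein-coding genes, 76.5% and 77.0% of such windows held at least 1 core. No other gene starts within 2500 bp of the CCNE1 TSS.

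CDC25A, the CDK2-activating phosphatase (ENSG00000164045.12, chromosome 3, 48157146 to 48188417, minus strand), gave fold enrichments of 3.96 and 6.26 in DMSO and of 14.0 and 17.3 under palbociclib. The groups did not overlap, with means of 5.11 ± 1.62 and 15.6 ± 2.39 (SD, n = 2 each). The log2 ratio was 1.64 ± 0.36 (SE), 3.12-fold (exact permutation test over libraries, two-sided, p = 0.333). The peak in DMSO replicate 1 was among the weakest promoter peaks of its list, where only 4.79% of genes with a peak had a lower value. Width was 320 and 162 bp with DMSO and 1113 and 1007 bp with palbociclib. The palbociclib peaks extended mainly into the gene, to +835 and +782 bp, and started at −277 and −224 bp. Their summits lay at +41 and +2 bp, compared with the E2F site that starts at −44 bp, and the windows of 100 bp to each side of both summits held that site. Of the windows at palbociclib promoter summits of all protein-coding genes, 5.83% and 5.95% held a full E2F site. Both CDC25A windows also held 1 GC box, 1 CCAAT box and 2 E2F cores.

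CCNA2, the cyclin A of dividing somatic cells (ENSG00000145386.11, chromosome 4, 121816444 to 121823883, minus strand), was called with palbociclib only, at 6.72 and 10.0 (mean 8.36 ± 2.32, SD, n = 2). The summits of the replicates lay 286 bp apart, at −21 bp in replicate 1 and +265 bp in replicate 2, compared with a median of 59.0 bp over 6974 genes called in both lists. The summit pileups were 22 (95% Poisson interval 13.8 to 33.3) and 20 (12.2 to 30.9) fragments. The local background was 2.42 in replicate 1 and 1.10 in replicate 2, so the higher fold enrichment of replicate 2 came with a lower background and not with more fragments. The peaks, 612 and 748 bp wide, both covered the TSS. The summit window of replicate 1 held the CCAAT box and both CTTGAA sequences, and that of replicate 2 held none of them. Over all protein-coding genes, 25.4% and 26.1% of the palbociclib summit windows held a CCAAT box and 3.04% and 2.99% a CTTGAA. Neither CCNA2 window held a full E2F site, and they held 1 and 2 E2F cores.

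CDK2 itself (ENSG00000123374.11, chromosome 12, 55966781 to 55972789, plus strand) had the lowest fold enrichments of the 5 genes called with palbociclib, at 5.38 and 7.49 (mean 6.43 ± 1.49, SD, n = 2). No peak was called with DMSO. The peaks were narrow, 259 and 267 bp, compared with medians of 505 and 492 bp for promoter peaks in the same lists, and 16.6% and 18.9% of genes with a peak had a narrower one. Their summits sat at +33 and −10 bp, close to the TSS. A transcript of PMEL, a melanosome gene on the opposite strand that runs across CDK2, starts at −94 bp, so this peak also lies in the promoter of another gene. The summit pileups of 20 and 26 fragments (95% Poisson intervals 12.2 to 30.9 and 17.0 to 38.1) stood on the highest background of the members in each palbociclib list, 2.91 and 2.61.

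CCNA1 (ENSG00000133101.10, chromosome 13, 36431520 to 36442870, plus strand) had no Rb peak under either treatment. The single peak at its promoter, from 36431575 to 36431756, came from IgG2a, with a fold enrichment of 4.02, a −log10 q of 1.48 and a pileup of 5 fragments (95% Poisson interval 1.62 to 11.7), the smallest pileup called on chromosomes in that list. It lay 177 bp downstream of the most upstream annotated start and at −798 bp from the canonical one.

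**Figure D2:**
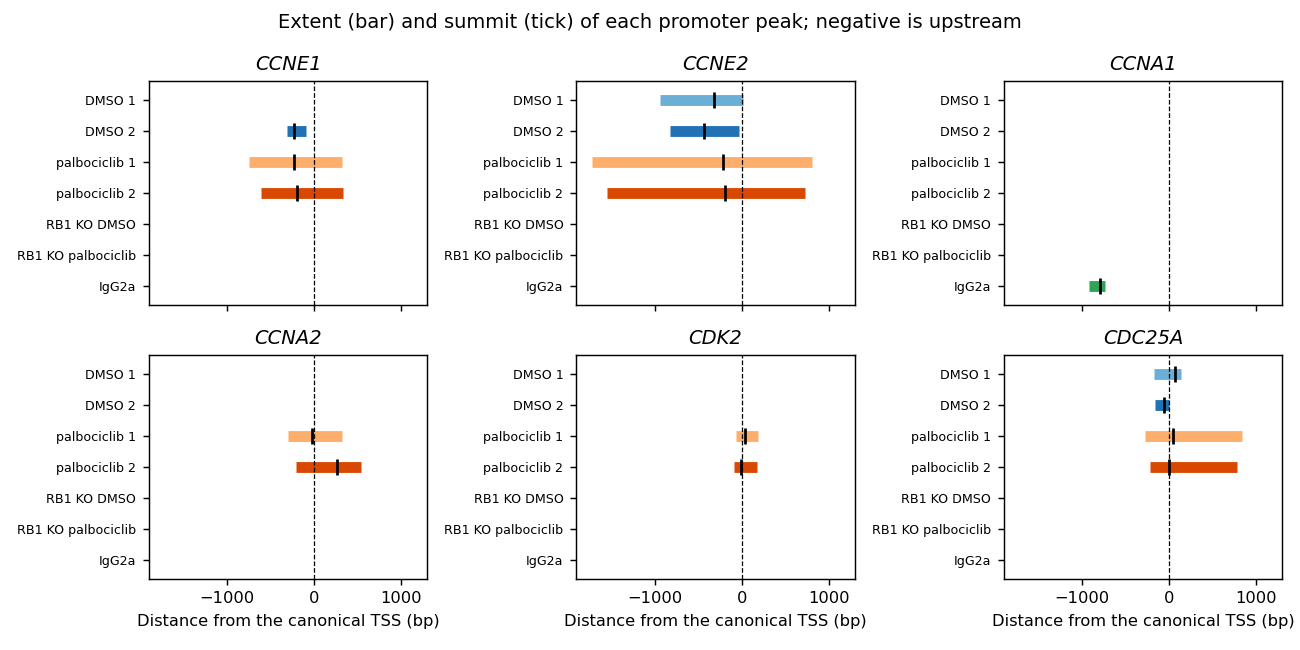
Extent (bar) and summit (tick) of each promoter peak, in bp from the canonical TSS of each gene (dashed line, negative values upstream), with 1 row per peak list. The CCNE2 peaks are the widest, at 2529 and 2264 bp with palbociclib, and the CDK2 peaks span 259 and 267 bp over the TSS.

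Ordered by fold enrichment with palbociclib, the members ran CCNE2, CCNE1, CDC25A, CCNA2 and CDK2. The replicate values did not overlap between CCNE2 and CCNE1 (51.8 and 57.0 against 25.4 and 30.0), between CCNE1 and CDC25A (against 14.0 and 17.3) or between CDC25A and CCNA2 (against 6.72 and 10.0). CCNA2 and CDK2 overlapped (6.72 and 10.0 against 5.38 and 7.49). The order in part followed the background. Summit pileups, which were recovered as whole fragments from the deposited values, were 126 and 145 at CCNE2, 47 and 55 at CCNE1, 40 and 49 at CDC25A, 22 and 20 at CCNA2 and 20 and 26 at CDK2. By pileup CCNE1 and CDC25A overlapped, and their backgrounds were 0.887 and 0.864 at CCNE1 and 1.94 and 1.88 at CDC25A. CCNA2 and CDK2 overlapped by pileup as well, and CDK2 was the higher of the pair in replicate 2.

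**Figure D3:**
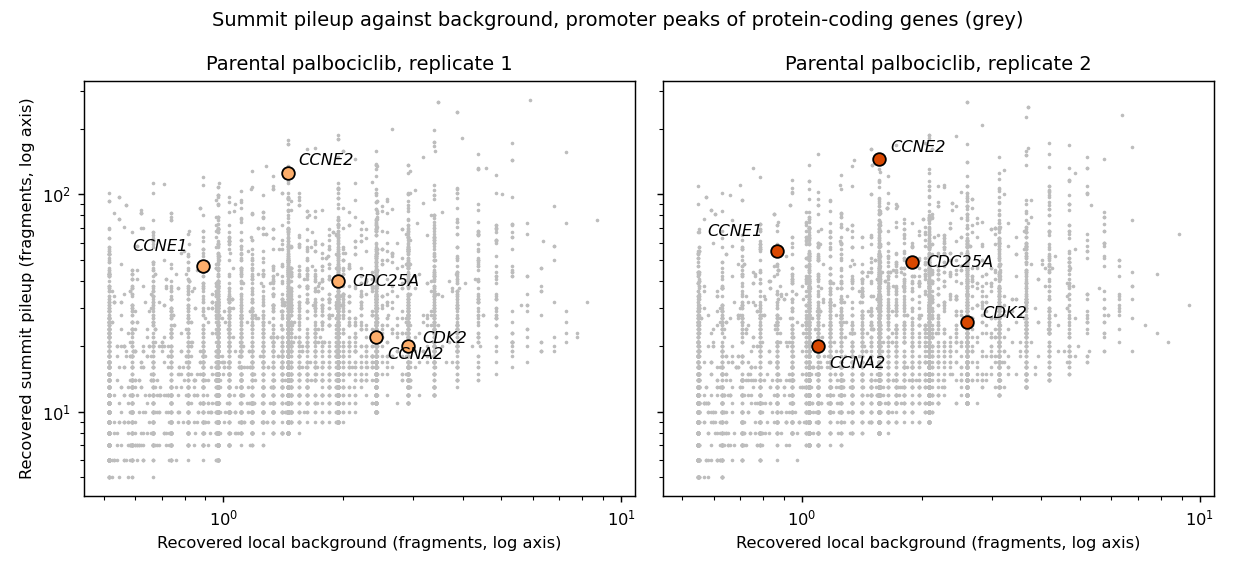
Recovered summit pileup against recovered local background, in fragments on log axes, for the promoter peak of each protein-coding gene (grey) and the 5 called members (coloured) in each palbociclib replicate. CCNE2 stands at 126 and 145 fragments, CCNE1 combines a low background with 47 and 55 fragments, and CCNA2 has a background of 2.42 in replicate 1 and 1.10 in replicate 2.

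The size of the change with palbociclib was compared for CCNE2 and CDC25A with that of all 580 protein-coding genes called in the 4 parental lists. In 100% of these genes both palbociclib fold enrichments exceeded both DMSO values, so the separation of the groups at CCNE2 and CDC25A is the common pattern. The median log2 ratio was 1.88 (quartiles 1.64 and 2.13), 3.67-fold, and 19.3% of genes had a smaller ratio than CCNE2 and 27.1% a smaller ratio than CDC25A.

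For CCNE2 this standing depended on the measure. With the pileup divided by the background floor, the smallest local background of the list, the log2 ratio of CCNE2 was 2.29, 4.88-fold, and 84.3% of genes had a smaller ratio, while the median of all genes was 1.92. The recovered background at the CCNE2 summit was 0.590 and 0.491 with DMSO and 1.45 and 1.56 with palbociclib. Relative to the floor it was 2.71-fold higher with palbociclib, more than in 99.7% of the 580 genes, whose median was 0.994-fold. The summits lay at different positions under the treatments, and the part of that shift in the background was not tested. CDC25A differed less between measures, with a log2 ratio of 1.57 by pileup, and 15.2% of genes below it.

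**Figure D4:**
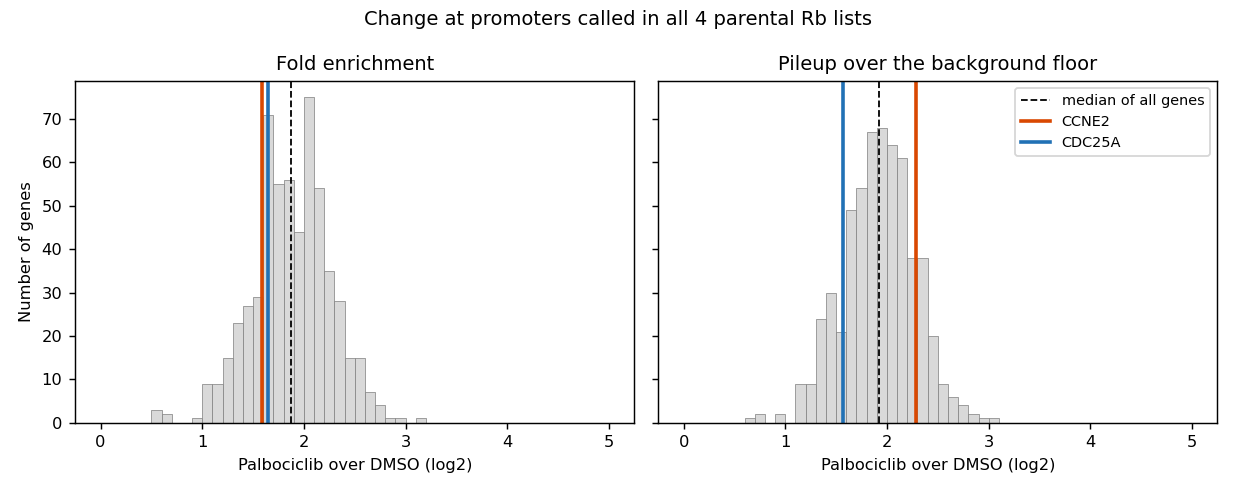
Number of genes by log2 ratio of palbociclib over DMSO, for the 580 protein-coding genes with a promoter peak in all 4 parental Rb lists, from fold enrichment (left) and from the pileup over the background floor (right). The dashed line is the median, 1.88 and 1.92, and CCNE2 moves from 1.58 on the left to 2.29 on the right, across the median.

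Peaks of the members were, apart from CDK2, wider than most promoter peaks with palbociclib. The share of genes with a narrower peak was 99.9% in both lists for CCNE2, 92.0% and 87.4% for CCNE1, 93.3% and 89.9% for CDC25A and 60.6% and 75.8% for CCNA2. Over the genome, median promoter peak width was 269 and 234 bp in DMSO replicates 1 and 2, against 505 and 492 bp under palbociclib. Summits of promoter peaks lay a median of 103 and 101 bp from the nearest TSS with palbociclib, in either direction. These distances count only starts of the same gene. CCNE1 and CCNE2 were farther upstream than that, at −234 and −197 bp and at −159 and −143 bp, whereas CDC25A and CDK2 lay within 29 bp. The NDUFAF6 start was not counted for CCNE2. It lies at −332 bp from the canonical CCNE2 TSS, and the CCNE2 summits lay at −212 and −196 bp on that scale. Replicate summits lay within 37 bp at CCNE1, 16 bp at CCNE2, 43 bp at CDK2 and 39 bp at CDC25A with palbociclib.

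The wider pathway was described with 35 other genes that regulate, partner or follow cyclin E, cyclin A and CDK2. Because these genes were chosen with earlier results of these data known, their counts beside all protein-coding genes are a description and not a test. A promoter peak was called at 27 of the 35 in each palbociclib list, against 39.6% and 39.0% of all protein-coding genes. In each DMSO list 7 had one, against 5.22% and 4.28%. The same 27 were called in both palbociclib replicates. Of the 35, 19 were called in both palbociclib lists and neither DMSO list, 6 in all 4 parental lists and 2 in both palbociclib lists and 1 DMSO list. Over all protein-coding genes these shares were 28.4%, 2.90% and 3.66%. None had a peak in an RB1 KO list. In the IgG2a list, 1 of the 35 had a peak, CCNB1, a mitotic cyclin, at 5.16. With the Rb antibody and palbociclib CCNB1 had 5.87 and 5.33. The Rb lists were called against an IgG control, and the control of the IgG2a list is not given. The sizes of these values therefore cannot be compared between the antibodies. The share of all protein-coding genes with an IgG2a peak was 1.95%.

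By the mean of the palbociclib replicates, the 5 highest peaks of the pathway were at CDC6, which loads the replicative helicase, E2F1, RBL1, which encodes the Rb relative p107, NPAT, the CDK2 substrate that drives histone genes, and CCNF, a cyclin that acts in a ubiquitin ligase. CDC6 had 22.9 and 23.1 with DMSO and 66.1 and 75.8 with palbociclib, and was the only gene of the list above CCNE2 in both palbociclib lists. The E2F1 values were 57.7 and 52.4, those of RBL1 39.9 and 46.0, those of NPAT 25.4 and 28.6 and those of CCNF 29.4 and 22.2. The kinases that oppose CDC25 by phosphorylating CDKs, WEE1 and PKMYT1, were both called in all 4 parental lists, and were singled out after their values were seen. WEE1 had 7.35 and 6.55 with DMSO and 15.1 and 16.4 with palbociclib. PKMYT1 had 7.77 and 6.61 and then 23.5 and 27.2, above CCNF in replicate 2. Neighbouring starts were listed for the 6 members only, so a pathway peak may also lie in the promoter of another gene. PAQR4 had the same log2 ratios as PKMYT1 by fold enrichment and by pileup, 1.82 and 1.85. In palbociclib replicate 1, ATM had a pileup of 86 on a background of 2.42, which gives the fold enrichment of NPAT. The peaks of PKMYT1 and NPAT therefore cannot be assigned to a single gene. The 6 genes of the list called in all 4 lists had a median log2 ratio of 1.72, beside 1.88 for all such genes.

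Without a promoter peak in any parental list were 8 of the 35 genes. They included CDK7, CCNH and MNAT1, which encode the complete CDK-activating kinase. The others were CDKN1C, which encodes the inhibitor p57, CKS2, a small CDK-binding protein, RBL2, which encodes p130, CCND2 and CDK6. By role, a peak was called in both palbociclib lists at 6 of 6 substrates or targets, 4 of 4 turnover genes, 2 of 2 inhibitory kinases, 5 of 6 pocket protein or E2F genes, 3 of 4 related cyclins or partners, 2 of 3 inhibitor proteins, 3 of 5 cyclin D kinase genes and 2 of 5 activators. The share over all protein-coding genes was 34.9%, and no difference between roles was tested.

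**Figure D5:**
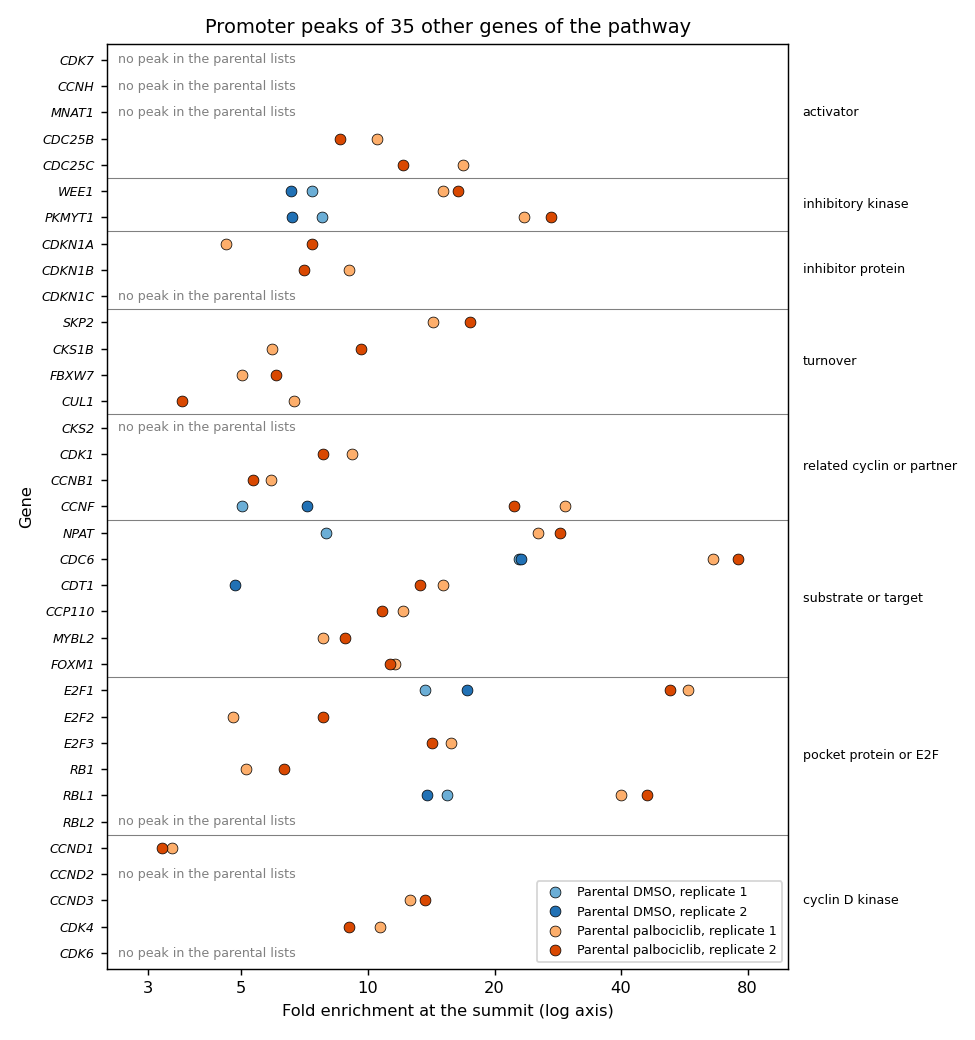
Fold enrichment at the summit of the promoter peak (log axis) of the 35 other pathway genes, grouped by role, with 1 point for each parental Rb list in which a peak was called. CDC6, E2F1 and RBL1 have the highest palbociclib values, from 39.9 to 75.8, and 8 genes have no peak.

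Genes with the same calls in all 7 lists and the closest fold enrichments were sought for each member, by the mean absolute log2 difference over the lists in which it was called. For CCNE1, over 3 lists and 267 genes, these were OLA1 (0.165) and PSMB8 (0.170). For CCNE2, over 4 lists and 563 genes, NDUFAF6 came first at 0.000 because it shares the peak, followed by FANCG (0.172), a Fanconi anaemia DNA repair gene. For CDC25A, over 4 lists, they were GINS2 (0.118), a subunit of the replicative helicase, and BUB3 (0.173), a spindle checkpoint gene. For CCNA2, over 2 lists and 5510 genes, they were RCCD1 (0.014) and KIF18B (0.023), a mitotic kinesin. For CDK2, also over 2 lists, they were NELFA (0.000) and KANK3 (0.011).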

How the data were processed

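Rb and IgG2a CUT&RUN of ZR-75-1 cells gave 7 peak lists, grouped by sample title. Per the study's methods and the submitters' processing notes, reads were trimmed (BBDuk) and mapped to hg38 (Bowtie2 2.3.4.1), those in blacklisted regions or the mitochondrial genome were dropped, duplicates were kept, and the authors called peaks for each library with MACS2 2.2.7.1, an IgG control and q of 0.05. The control of the IgG2a list is not given in the sources used here. The deposited columns are an integer score, fold enrichment (a ratio of pileup plus 1 to background plus 1), −log10 p, −log10 q and the summit.

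Peaks were annotated with GENCODE 44, an overlap of at least 1 bp being required, and the highest promoter peak represented a gene. For every summit, the pileup in whole fragments and its background were solved from the deposited fold enrichment and −log10 p. Every peak had 1 solution, with a largest misfit of 0.0055, and the recovery was tested on simulated data. The lists hold no read totals, so no count model was run. The parental groups were compared by exact permutation over libraries, and RB1 KO and IgG2a without a test. Background floors are in fragments.

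The 6 genes are always named. Of the pathway list, those called unlike its majority with palbociclib, those called in a control list and the 5 highest were named, and the 2 closest genes of each member. The members and lists were chosen with earlier results of these data known. Motif windows leave out genes on chromosome 8, and CCNE2 is among them. CDK2 had no matched promoter window, so the motif results cover neither gene. Alternatives covered the promoter window, the transcripts used, peak cutoffs, list length, the pileup, left-out replicates and a replicate block. Python 3.11.15, SciPy 1.17.1, pandas 2.3.3 and Matplotlib 3.10.9 were used.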

Additional observations from a re-analysis of the deposited data

How the results depend on the processing

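With 2 libraries per parental group the exact permutation test cannot give a p-value below 0.333. Over all alternatives tried for the number of promoters with a peak and for the change at CCNE2 and CDC25A, the palbociclib mean was above the DMSO mean. Lists of equal length gave the smallest difference in the number of promoters, 0.5 against 2.5. There CCNA2 and CDK2 were not called, and CDC25A was called in replicate 2 only under each treatment. At −log10 q of at least 5 the difference was 3.5, and at a fold enrichment of at least 5 it was 3.0. With 1 replicate left out it ranged from 2.0 to 3.0. The log2 ratio then ranged from 1.22 to 1.95 for CCNE2 and from 1.31 to 1.97 for CDC25A, with the ends at DMSO replicate 2 or 1 left out.

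The replicate numbers were not taken as pairs, since over 580 genes the deviations of same-numbered libraries correlated at 0.06. A replicate block changes only the test. It could not alter the differences, which stayed at 2.5 promoters, 1.58 for CCNE2 and 1.64 for CDC25A. The exact sign-flip test gave p = 0.5, the smallest it allows with 2 pairs. The lists hold called peaks only, so occupancy below the calling threshold, with a smallest called pileup of 6 fragments in the DMSO lists and 5 in the palbociclib lists, was not measured.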

Other observations

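A strong Rb peak lay outside the gene downstream of CCNE1. It ran from 29844258 to 29845500 on chromosome 19 in palbociclib replicate 1 and from 29844261 to 29845291 in replicate 2, 19946 and 19949 bp past the end of the gene. Its fold enrichment was 31.5 and 25.7, beside 25.4 and 30.0 at the CCNE1 promoter, and it was 1243 and 1031 bp wide. In DMSO replicate 1 a peak of 187 bp was called there at 4.85, the library in which the CCNE1 promoter had no call. It lay in no protein-coding promoter, and IgG2a had no peak within 25000 bp of CCNE1 or at this position. The RB1 KO lists were not searched outside the members and their promoters, here or beside CDK2 and CCNA2.

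The region past the 3′ end of CDK2 carried higher Rb peaks than the CDK2 promoter. From 503 and 478 bp past the gene, at the shared promoter of RAB5B, a gene for a membrane traffic GTPase, and PMEL, fold enrichment was 17.7 and 20.0 with palbociclib and 6.58 in DMSO replicate 2, compared with 5.38 and 7.49 at the CDK2 promoter. Near CCNA2, the EXOSC9 promoter, 14731 and 14800 bp away, had 16.5 and 9.83 with palbociclib.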
